A study of Rattus norvegicus with 15 samples.

Results

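The genes of the respiratory chain were followed in the retina of rats kept in darkness or exposed to light. They were taken as the probe sets with a single gene symbol that names a subunit of NADH dehydrogenase (*Nduf* a, b, c, s and v), succinate dehydrogenase (*Sdha* to *Sdhd*), the cytochrome bc1 complex (*Uqcr*), cytochrome c oxidase (*Cox4* to *Cox8*) or ATP synthase (*Atp5*). Of the 14217 genes with such a probe set on the array, 79 met this rule, with 88 probe sets, and the probe set of highest mean stood for each gene. Complex I had 35 genes, complex II had 4, complex III had 7, complex IV had 17 and complex V had 16. Of the 79 genes, 4 match by name but encode no fixed subunit: *Ndufa4l2* and *Cox7a2l*, related to subunits, *Atp5if1*, the inhibitor of ATP synthase, and the pseudogene *Cox6c-ps1*. *Ndufa4* was counted with complex I by its name, and with complex IV as an alternative. The subunits encoded by mitochondrial DNA have other names and lie outside the rule. *Cyc1* does not match the rule either and was read with the electron carriers.

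Retinal RNA of adult male Long Evans rats, dark-adapted overnight, was hybridised to 15 rat expression arrays, 3 replicas for each of 5 conditions. The control was 0 ZT dark, taken at 7 am without light. Retinas in 3 ZT dark and 6 ZT dark were taken 3 and 6 hours later without light, and those in 3 ZT light and 6 ZT light at the same clock times after 3 or 6 hours at 1000 lux. For 6 ZT light the labels conflict, since the titles say 6 hours of light and other fields 3, and the titles were followed.

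The respiratory chain moves electrons from NADH and succinate through complexes I to IV to oxygen and pumps protons across the inner membrane of the mitochondrion, and complex V makes ATP as the protons return. Complex II also belongs to the tricarboxylic acid cycle and passes electrons on without pumping protons. In the retina the chain is concentrated in the mitochondria of photoreceptor inner segments, where ion pumping in darkness consumes much of the ATP.

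Values are log2 values made by the authors with the Robust Multi-array Average, so that a log2 difference of 1 is a doubling. Below, values of a condition stand in the order of replicas 1, 2 and 3. The median over all probe sets went with the replica number, from 8.28 to 8.32 in replica 1, from 8.58 to 8.68 in replica 2 and from 8.74 to 8.80 in replica 3, so differences were taken within a replica number. The mean of the 79 genes lay between 12.5, in 3 ZT light replica 2, and 13.3, in 0 ZT dark replica 3. The *Actb* control probe sets near the 3′ end exceeded those near the 5′ end, a measure of RNA integrity, by 2.40 in 3 ZT light replica 2 and by 2.10 in 0 ZT dark replica 1, against 0.708 to 1.37 on the other 13 arrays. The same *Gapdh* difference was 0.362 and 0.261 on these arrays and 0.005 to 0.134 on the others. Results are therefore also given without these arrays. The 4 rod photoreceptor markers measured, of 6 listed, averaged 14.9 to 15.2 on every array.

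No respiratory chain gene passed an adjusted p of 0.05 in any of the 6 comparisons between conditions or in the difference of the light effects (limma, with replica number as a block, Benjamini-Hochberg over 31042 probe sets). The lowest adjusted p was 0.440, for *Cox8b* in 6 ZT light against 6 ZT dark. The counts, medians and single values below are descriptions of these arrays. The number of arrays limits their precision, and since nothing says how the replicas relate, each p-value reflects their spread alone, which may be technical. In whole retinas, fewer cells of a type and less RNA per cell cannot be told apart.

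After 3 hours of light the chain stood lower than in 0 ZT dark on replica 2 and, by less, on replica 3. Of the 79 genes, 72 were lower in the fit, against 48.7% of all probe sets, with a median of -0.23, against 0.00 for all probe sets. The median difference was 0.04 in replica 1, -0.61 in replica 2 and -0.11 in replica 3. At an unadjusted p under 0.05, 14 genes were lower and 0 higher, against 4.43% lower of all probe sets, and 0 passed the adjusted p, against 0.00322%. In all 3 replicas 25 were lower, against 11% of all probe sets. A further background, chosen after seeing the data, was the 914 probe sets within the interquartile range of the members' mean values. Of these, 61.7% were lower, with a median of -0.07 and of -0.20 in replica 2.

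**Figure D1:**
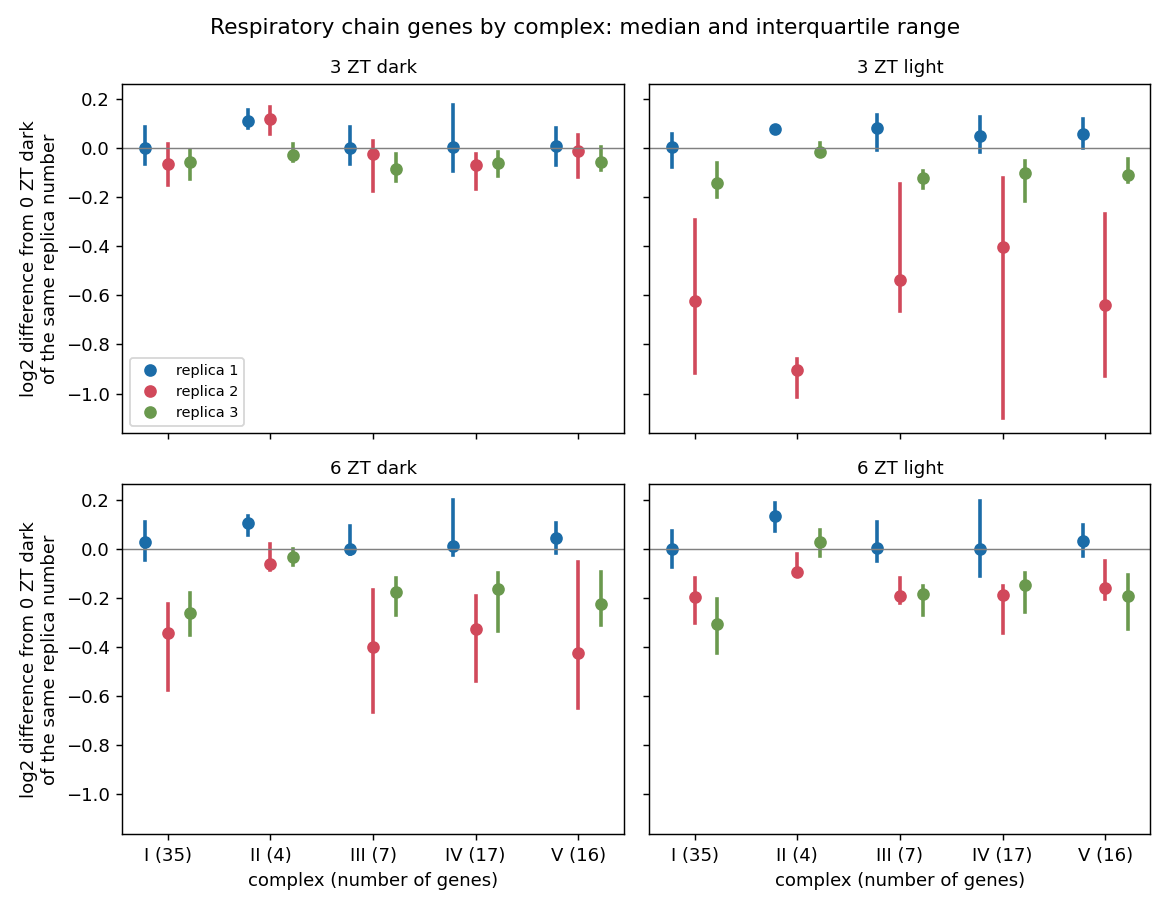
Log2 difference from 0 ZT dark of the same replica number (vertical axis) for the genes of complexes I to V (horizontal axis, with the number of genes), in 3 ZT dark, 3 ZT light, 6 ZT dark and 6 ZT light. Points are medians over the genes of a complex in replicas 1, 2 and 3, and bars the interquartile range of the genes. In 3 ZT light, replica 2 stood at -0.62 for complex I and at -0.91 for complex II, while replica 1 stayed between 0.00 and 0.08 in every complex.

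All complexes were lower in 3 ZT light, and complex II was the lowest on replica 2. The fitted medians were -0.25 for complex I (33 of 35 genes lower), -0.27 for complex II (4 of 4), -0.12 for complex III (6 of 7), -0.17 for complex IV (13 of 17) and -0.24 for complex V (16 of 16). On replica 2 they were -0.62, -0.91, -0.54, -0.40 and -0.64 in the same order. On replica 3 complex II had a median of -0.02, the smallest in size, and complex I one of -0.14. Of the 14 genes lower at p under 0.05, 11 belonged to complex I. They were *Ndufa3*, *Ndufa5*, *Ndufa6*, *Ndufa7*, *Ndufa8*, *Ndufb4*, *Ndufb7*, *Ndufb10*, *Ndufb11*, *Ndufs3* and *Ndufs7*, and the others were *Uqcr11*, *Cox6b1* and *Cox6b2*.

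Without 3 ZT light replica 2, the array with the largest *Actb* difference, most of this was gone. The median was -0.08, with 64 genes lower, and only *Cox6b2* was lower at p under 0.05. By complex the medians became -0.11 for complex I, 0.01 for complex II, -0.05 for complex III, -0.07 for complex IV and -0.04 for complex V. Without 0 ZT dark replica 1, the other array with a large *Actb* difference, the median moved the other way, to -0.33, with 76 genes lower and 29 at p under 0.05. Without both arrays it was -0.16, with 73 genes lower and 8 at p under 0.05, and complex II stood at -0.02 where complex I stood at -0.20. Leaving out another array also moved the count at p under 0.05, to 1 without 0 ZT dark replica 2, 3 without 0 ZT dark replica 3, 30 without 3 ZT light replica 1, 29 without 3 ZT light replica 3, and 9 when 3 ZT dark replica 1 was left out, as when 6 ZT light replica 1 was. Without replica number as a block it was 1. The part of RNA integrity in this was not tested.

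**Figure D2:**
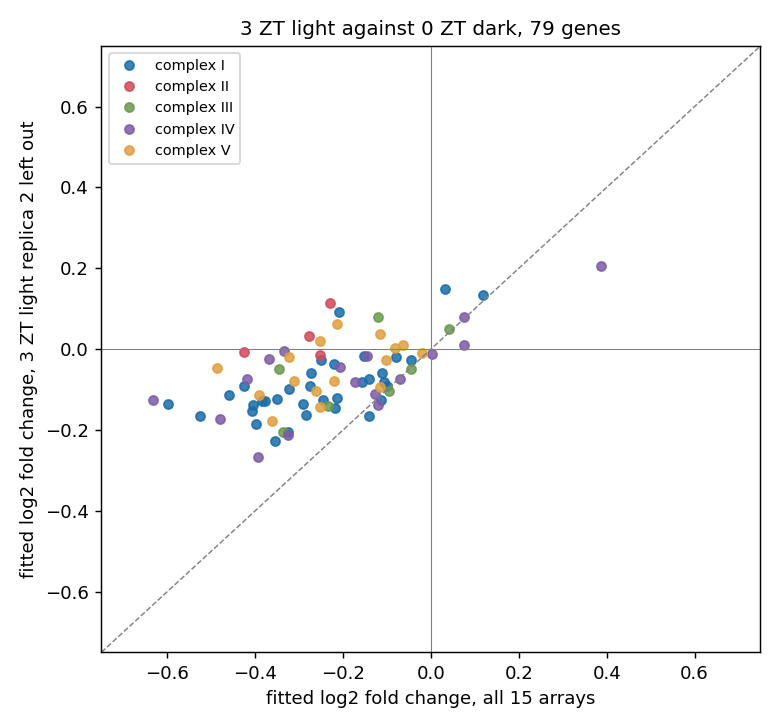
Fitted log2 fold change of each of the 79 genes in 3 ZT light against 0 ZT dark with all 15 arrays (horizontal axis) and with 3 ZT light replica 2 left out (vertical axis), coloured by complex, with the line of equal values dashed. Most points lie above the dashed line and near 0 on the vertical axis, and the median moves from -0.23 to -0.08.

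The complex II genes show how much this array decides. *Sdha*, the flavoprotein that oxidises succinate, stood at 13, 13.01 and 13.29 in 0 ZT dark, 13.09, 13.08 and 13.38 in 3 ZT dark, 13.13, 13.21 and 13.38 in 6 ZT dark, 13.11, 12.10 and 13.40 in 3 ZT light and 13.20, 13.16 and 13.42 in 6 ZT light. *Sdhb*, its iron-sulfur partner, stood at 13.63, 13.74 and 14.05 in 0 ZT dark, 13.77, 13.90 and 14.01 in 3 ZT dark, 13.71, 13.66 and 13.90 in 6 ZT dark, 13.66, 13.01 and 13.99 in 3 ZT light and 13.71, 13.63 and 13.95 in 6 ZT light. *Sdhc*, a membrane anchor of the complex, stood at 13.39, 13.68 and 13.80 in 0 ZT dark, 13.61, 13.68 and 13.73 in 3 ZT dark, 13.53, 13.64 and 13.77 in 6 ZT dark, 13.47, 12.35 and 13.78 in 3 ZT light and 13.58, 13.57 and 13.79 in 6 ZT light. In each gene 3 ZT light replica 2 was the lowest of the 15 arrays, and the other 2 replicas of 3 ZT light lay among the dark values of their own number or within 0.1 of them. For *Sdhc* the fitted difference from 3 ZT dark was -0.47 ± 0.24 (SE, adjusted p = 0.895), and -0.05 without that array. For *Sdhb* it was -0.34 ± 0.15 (SE, adjusted p = 0.895), and -0.10 without it. For *Sdha* it went from -0.31 to 0.03.

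Genes of complexes I, III and IV had the same outlying array. *Ndufv1*, the subunit of complex I that binds NADH and FMN, stood at 12.71, 13.11 and 13.15 in 0 ZT dark, 13.10, 13.02 and 13.13 in 3 ZT dark, 12.99, 13.08 and 13.11 in 6 ZT dark, 13.02, 12.19 and 13.13 in 3 ZT light and 13.10, 13.09 and 13.14 in 6 ZT light. *Uqcrfs1*, the Rieske iron-sulfur protein of complex III, stood at 13.34, 13.68 and 13.98 in 0 ZT dark, 13.48, 13.73 and 13.80 in 3 ZT dark, 13.48, 13.57 and 13.87 in 6 ZT dark, 13.48, 12.69 and 13.79 in 3 ZT light and 13.54, 13.48 and 13.85 in 6 ZT light. *Cox4i1*, the common form of subunit 4 of complex IV, stood at 14.39, 14.61 and 14.71 in 0 ZT dark, 14.56, 14.47 and 14.64 in 3 ZT dark, 14.48, 14.44 and 14.58 in 6 ZT dark, 14.48, 13.47 and 14.64 in 3 ZT light and 14.50, 14.46 and 14.59 in 6 ZT light. In these genes 3 ZT light replica 2 lay lowest of all arrays, by over 0.5 from the next. Their differences from 0 ZT dark in 3 ZT light were -0.21, -0.35 and -0.37, and without that array 0.09, -0.05 and -0.02.

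*Ndufs1*, the largest iron-sulfur subunit of complex I, did not share this. It stood at 12.26, 12.37 and 12.61 in 0 ZT dark, 12.18, 12.50 and 12.72 in 3 ZT dark, 12.29, 12.50 and 12.71 in 6 ZT dark, 12.30, 12.52 and 12.77 in 3 ZT light and 12.15, 12.59 and 12.71 in 6 ZT light. In 3 ZT light it was above 0 ZT dark in each replica, with a fitted difference of 0.12 ± 0.07 (SE, adjusted p = 0.696). *Uqcrc1*, a core subunit of complex III, stood at 13.39, 13.55 and 14.00 in 0 ZT dark, 13.69, 13.55 and 13.93 in 3 ZT dark, 13.70, 13.75 and 13.87 in 6 ZT dark, 13.71, 13.01 and 13.87 in 3 ZT light and 13.71, 13.48 and 13.81 in 6 ZT light. It was low in 3 ZT light replica 2 and in 0 ZT dark replica 1, the arrays with the large *Actb* differences, and its differences from 0 ZT dark ran from -0.12 in 3 ZT light to 0.12 in 6 ZT dark.

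Among complex IV genes, *Cox6a1*, the general form of subunit 6a, stood at 14.23, 14.41 and 14.68 in 0 ZT dark, 14.38, 14.38 and 14.64 in 3 ZT dark, 14.43, 14.15 and 14.57 in 6 ZT dark, 14.38, 13.32 and 14.62 in 3 ZT light and 14.43, 14.24 and 14.53 in 6 ZT light. *Cox6b1*, the general form of subunit 6b, stood at 13.93, 14.24 and 14.00 in 0 ZT dark, 13.83, 14.09 and 13.95 in 3 ZT dark, 13.83, 13.58 and 13.73 in 6 ZT dark, 13.79, 13.05 and 13.88 in 3 ZT light and 13.81, 14.05 and 13.75 in 6 ZT light. *Cox8a*, the general form of subunit 8, stood at 14.40, 14.66 and 14.86 in 0 ZT dark, 14.61, 14.49 and 14.79 in 3 ZT dark, 14.61, 14.49 and 14.76 in 6 ZT dark, 14.56, 14.13 and 14.79 in 3 ZT light and 14.70, 14.46 and 14.74 in 6 ZT light. Again 3 ZT light replica 2 was the lowest array in each. *Cox6b1* differed from 0 ZT dark by -0.48 ± 0.20 (SE, adjusted p = 0.642) in 3 ZT light, and by -0.17 without that array.

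The genes of the ATP synthase head and c ring shown next differed less. *Atp5f1a*, the alpha subunit of the catalytic head, stood at 14.27, 14.48 and 14.42 in 0 ZT dark, 14.30, 14.48 and 14.44 in 3 ZT dark, 14.31, 14.45 and 14.48 in 6 ZT dark, 14.33, 14.03 and 14.47 in 3 ZT light and 14.32, 14.45 and 14.48 in 6 ZT light. *Atp5f1b*, the beta subunit that carries the catalytic sites, stood at 14.62, 14.82 and 14.86 in 0 ZT dark, 14.76, 14.81 and 14.80 in 3 ZT dark, 14.73, 14.79 and 14.80 in 6 ZT dark, 14.74, 14.56 and 14.80 in 3 ZT light and 14.76, 14.70 and 14.78 in 6 ZT light. *Atp5mc3*, a gene of the membrane c ring and the member of its family that the rule found, stood at 14.46, 14.64 and 14.63 in 0 ZT dark, 14.45, 14.69 and 14.65 in 3 ZT dark, 14.44, 14.47 and 14.60 in 6 ZT dark, 14.45, 14.37 and 14.61 in 3 ZT light and 14.50, 14.63 and 14.61 in 6 ZT light. Their differences from 0 ZT dark in 3 ZT light were -0.12, -0.06 and -0.10, each within 2 standard errors of 0.

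In darkness the chain at 3 ZT stood close to 0 ZT. In 3 ZT dark 50 of 79 genes were lower than in 0 ZT dark, against 47.6% of all probe sets, with a median of -0.03. None was lower at p under 0.05, against 0.776%, and 0 passed the adjusted p, against 0%, with limma. In all 3 replicas 16 were lower, against 8.52%. The 4 genes of complex II were all higher, with a median of 0.08, while complexes I, III, IV and V had medians between -0.04 and -0.03. Without 0 ZT dark replica 1, 68 genes were lower, with a median of -0.12, and without 0 ZT dark replica 2 only 18 were, so the sign rests on single control arrays. Without 3 ZT dark replica 1 there were 29.

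Against darkness at the same hour, most of the decrease in 3 ZT light was again on replica 2. In 3 ZT light 73 of 79 genes were lower than in 3 ZT dark, against 49.7% of all probe sets, with a median of -0.18. The medians were 0.00, -0.49 and -0.04 in the 3 replicas. At p under 0.05, 7 genes were lower, against 2.64%, and 0 passed the adjusted p, against 0.00322%. In all 3 replicas 19 were lower, against 9.43%. The 7 genes were *Ndufa9*, *Ndufb7*, *Ndufb10*, *Ndufb11*, *Ndufs3*, *Ndufs7* and *Sdhb*. Without 3 ZT light replica 2, 65 genes were lower, with a median of -0.04 and 0 at p under 0.05. There were also 0 without 3 ZT dark replica 2 or without the block, 24 and 27 without 3 ZT light replica 1 or 3, 4 without 3 ZT dark replica 1 and 3 without 3 ZT dark replica 3, and leaving out an array of the other conditions left 3 to 7.

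At 6 ZT in darkness the chain was lower than at 0 ZT on replicas 2 and 3, and here complex II stood apart. Of the 79 genes 68 were lower, against 47.4% of all probe sets, with a median of -0.19. The medians were 0.03 in replica 1, -0.34 in replica 2 and -0.22 in replica 3. At p under 0.05, 20 genes were lower and 0 higher, against 5.26% lower of all probe sets, and 0 passed the adjusted p, against 0%. In all 3 replicas 24 were lower, against 15.1%. The 914 probe sets of similar brightness had a median of -0.01, with 52.0% lower. The *Actb* differences of 6 ZT dark were 1.09, 0.974 and 0.708, among the lower values of the 15 arrays. The *Gapdh* differences were 0.016, 0.134 and 0.03. That of replica 2 was the highest of the 13 arrays other than 3 ZT light replica 2 and 0 ZT dark replica 1. The mean of the 79 genes on 6 ZT dark replica 2 was 12.7.

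The fitted medians in 6 ZT dark were -0.19 for complex I (32 of 35 lower), -0.24 for complex III (6 of 7), -0.19 for complex IV (16 of 17) and -0.23 for complex V (12 of 16), and -0.02 for complex II (2 of 4). On replica 2 complex II had a median of -0.06, where the other complexes lay between -0.43 and -0.32. Of the 20 genes at p under 0.05, 10 were of complex I, 4 of complex III, 2 of complex IV and 4 of complex V. Without 0 ZT dark replica 1 there were 28, and without both that array and 3 ZT light replica 2 there were 45, with a median of -0.24 and complex II at -0.05. Without 6 ZT dark replica 2, or without 0 ZT dark replica 2, 2 were left in each case, without 6 ZT dark replica 3 there were 11, without 0 ZT dark replica 3 there were 7 and without 3 ZT light replica 2 alone there were 35. Without replica number as a block 1 gene had p under 0.05. Replica 1 held no general decrease at 6 ZT, with or without light.

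Within complexes I, III and V, core and catalytic genes had a fitted median nearer to 0 in 6 ZT dark than the other genes. This split was chosen after the values were seen and its difference was not tested. It took 14 genes, the 6 core subunits of complex I on the array (*Ndufv1*, *Ndufv2*, *Ndufs1*, *Ndufs3*, *Ndufs7* and *Ndufs8*), *Uqcrc1*, *Uqcrc2* and *Uqcrfs1* of complex III, and the 5 subunits of the ATP synthase head (*Atp5f1a* to *Atp5f1e*). The other genes include the c ring gene *Atp5mc3* and the matches *Ndufa4l2* and *Atp5if1*, which are no fixed subunits. In 6 ZT dark 8 of these 14 were lower, with a median of -0.05. Of the 44 other genes 42 were lower, with a median of -0.25. Of all probe sets 47.4% were lower. On replica 1 it was the core genes that lay further from 0, with medians of 0.11 and 0.02. On replica 2 the medians were -0.05 and -0.51, and on replica 3 -0.14 and -0.27. Of the 14 only *Atp5f1e* was lower at p under 0.05, a share near the 5.26% of all probe sets, and of the 44 there were 17. In 6 ZT light the medians were -0.06 and -0.17.

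**Figure D3:**
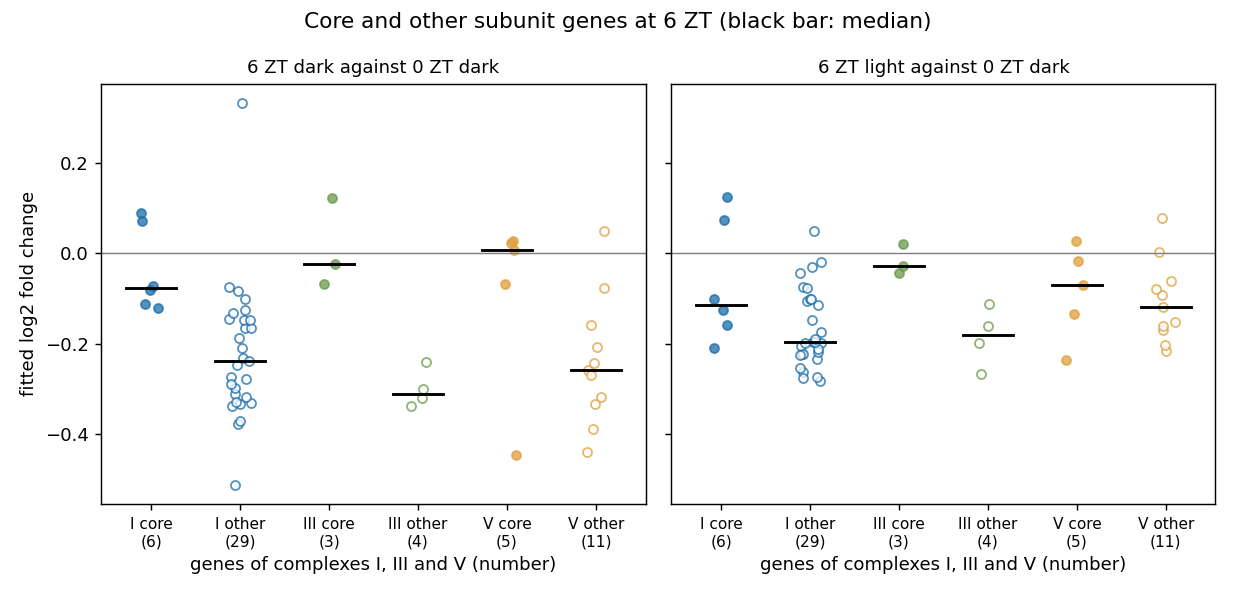
Fitted log2 fold change against 0 ZT dark (vertical axis) of the core genes (filled points) and the other genes (open points) of complexes I, III and V, with the number of genes, in 6 ZT dark (left) and 6 ZT light (right). Black bars are medians. The other genes of complex III stood at -0.31 and those of complex V at -0.26 in 6 ZT dark, against -0.02 and 0.01 for the core genes.

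The small subunits of complex III were all lower at p under 0.05 in 6 ZT dark. *Uqcrh*, the hinge protein beside cytochrome c1, stood at 14.39, 14.36 and 14.54 in 0 ZT dark, 14.30, 14.33 and 14.57 in 3 ZT dark, 14.28, 13.96 and 14.33 in 6 ZT dark, 14.32, 14.23 and 14.46 in 3 ZT light and 14.31, 14.16 and 14.33 in 6 ZT light. *Uqcr11*, a small membrane subunit, stood at 13, 13.34 and 13.50 in 0 ZT dark, 13.03, 12.92 and 13.32 in 3 ZT dark, 13, 12.65 and 13.17 in 6 ZT dark, 12.90, 12.55 and 13.38 in 3 ZT light and 12.98, 12.88 and 13.18 in 6 ZT light. In *Uqcrh* each 6 ZT dark array was below 0 ZT dark of its own number, as in 15.1% of all probe sets. The differences were -0.11, -0.40 and -0.21 in replicas 1, 2 and 3. The fitted difference was -0.24 ± 0.07 (SE, adjusted p = 0.495) for *Uqcrh* and -0.34 ± 0.13 (SE, adjusted p = 0.536) for *Uqcr11*. *Uqcrq* and *Uqcr10*, other small subunits, differed by -0.32 and -0.30, while *Uqcrc1* differed by 0.12 and *Uqcrc2*, the other core subunit, by -0.07.

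In complex I the smallest p-values belonged to accessory subunits of the membrane arm. *Ndufa1* stood at 14.28, 14.12 and 14.35 in 0 ZT dark, 14.17, 13.88 and 14.35 in 3 ZT dark, 14.19, 13.49 and 14.07 in 6 ZT dark, 14.18, 13.92 and 14.30 in 3 ZT light and 14.19, 13.82 and 13.89 in 6 ZT light. *Ndufb3* stood at 13.89, 13.98 and 13.98 in 0 ZT dark, 13.79, 13.91 and 13.94 in 3 ZT dark, 13.79, 13.33 and 13.74 in 6 ZT dark, 13.79, 13.48 and 13.93 in 3 ZT light and 13.75, 13.74 and 13.77 in 6 ZT light. Both were lower in 6 ZT dark in all 3 replicas, and replica 2 lay lowest. The fitted differences were -0.33 ± 0.11 (SE, adjusted p = 0.523) and -0.33 ± 0.11 (SE, adjusted p = 0.523). *Ndufa1* was also lower in 6 ZT light, by -0.28 ± 0.11 (SE, adjusted p = 0.774). *Ndufa6*, an accessory subunit that binds acyl carrier protein, had p under 0.05 against 0 ZT dark in 3 ZT light, 6 ZT dark and 6 ZT light, at -0.33, -0.33 and -0.27, and was lower in every replica of each. The other genes of complex I at p under 0.05 in 6 ZT dark were *Ndufa3*, *Ndufa7*, *Ndufa11*, *Ndufb1*, *Ndufb5*, *Ndufc1* and *Ndufc2*, with differences from -0.51 (*Ndufb1*) to -0.21 (*Ndufb5*).

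In complex V a gene of the head and genes outside it were among those at p under 0.05. *Atp5f1e*, the epsilon subunit of the central stalk, stood at 13.86, 13.88 and 14.03 in 0 ZT dark, 13.67, 13.55 and 13.98 in 3 ZT dark, 13.84, 13.01 and 13.58 in 6 ZT dark, 13.86, 13.28 and 13.88 in 3 ZT light and 13.84, 13.66 and 13.57 in 6 ZT light. *Atp5mpl*, a small membrane subunit, stood at 12.69, 12.80 and 13.24 in 0 ZT dark, 12.73, 12.67 and 13.16 in 3 ZT dark, 12.72, 12.26 and 12.94 in 6 ZT dark, 12.72, 12.55 and 13.10 in 3 ZT light and 12.72, 12.65 and 12.87 in 6 ZT light. In both, replica 1 was about level over the conditions and replica 2 of 6 ZT dark was the lowest of all arrays. The fitted differences were -0.45 ± 0.16 (SE, adjusted p = 0.531) and -0.27 ± 0.10 (SE, adjusted p = 0.537). *Atp5if1*, the inhibitor that blocks ATP hydrolysis, differed by -0.44 and *Atp5po*, a subunit of the peripheral stalk, by -0.24, and *Atp5f1a* and *Atp5f1b* by 0.02 and 0.01.

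After 6 hours of light the chain was again lower than at 0 ZT on replicas 2 and 3. In 6 ZT light 68 of 79 genes were lower, against 52.3% of all probe sets, with a median of -0.13 and medians of 0.01, -0.18 and -0.21 in the replicas. At p under 0.05, 6 genes were lower, against 2.26%, and 0 passed the adjusted p, against 0%. In all 3 replicas 24 were lower, against 9.38%. The 6 genes were *Ndufa1*, *Ndufa6*, *Ndufb5*, *Cox6b2*, *Cox7a1* and *Cox7b2*. By complex the medians were -0.19 for I, 0.02 for II, -0.11 for III, -0.13 for IV and -0.11 for V. Without 0 ZT dark replica 1 there were 74 genes lower, with a median of -0.23 and 13 at p under 0.05, without 0 ZT dark replica 2 there were 2 at that p, without 0 ZT dark replica 3 or without 6 ZT light replica 3 there were 3 each, and without 3 ZT light replica 2 there were 10. Without both 0 ZT dark replica 1 and 3 ZT light replica 2 there were 26, and without replica number as a block there were 0. With array quality weights there were 40, and 2 of them, *Cox6b2* and *Ndufa1*, passed the adjusted p. The weights were 0.488, 0.464 and 7.45 in replicas 1, 2 and 3 of 6 ZT light, so that fit rests mostly on replica 3 there.

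Light against darkness at 6 ZT gave small differences of the other sign, from 1 replica. Of the 79 genes 57 were higher in 6 ZT light, against 48% of all probe sets, with a median of 0.05 and medians of -0.02, 0.17 and 0.00 in the replicas. With array quality weights 35 were higher and the median was -0.02, so the direction rests on the weighting, and 2 genes, *Cox8b* and *Ndufs4*, passed the adjusted p. In that fit 6 ZT light rests mostly on replica 3, which had a weight of 7.45. Without 6 ZT light replica 2, 42 were higher, with a median of 0.01, and without 6 ZT dark replica 2 the median was 0.02. At p under 0.05 *Cox8b* and *Ndufs4*, an accessory subunit of complex I, were higher, 2 genes against 5.56% of all probe sets. None passed the adjusted p, against 0%, and 16 were higher in all 3 replicas, against 17.2%, a share near the background. The 14 core and catalytic genes had a median of -0.02, with 9 lower, and the 44 other genes of complexes I, III and V one of 0.07, with 38 higher. On replica 2 the medians of these groups were -0.04 and 0.28. Without 6 ZT dark replica 1, 5 genes were higher at p under 0.05, and without replica 2 or 3 of either condition 1 was. With dim probe sets left out there were 0.

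Lens and pigment epithelium markers differed between the 6 ZT arrays. The 6 lens markers, 6 of 6 measured, averaged 12.4, 12.5 and 11.7 in 6 ZT dark and 10.9, 11.6 and 8.81 in 6 ZT light, and 10.55 to 11.53 in 0 ZT dark. The 4 pigment epithelium markers measured, of 5 listed, averaged 11.7, 12.2 and 11.3 in 6 ZT dark, 13.1, 12.5 and 12.2 in 6 ZT light and 12.2 to 12.8 in 0 ZT dark. The 4 bipolar cell markers measured, of 5 listed, averaged 10.4 to 10.6 in 3 ZT light and 10.7 to 11.4 in 0 ZT dark, and the 5 cone markers had a median of -0.22 in 6 ZT dark. Medians of the ganglion cell, Müller glia and microglia markers lay between -0.31 and 0.11 in the comparisons with 0 ZT dark, and those of the 2 blood genes between -0.23 and 0.39. The blood genes averaged 11.7 in 6 ZT light replica 2, and 8.79 to 10.2 on the other arrays. Their part in the respiratory chain values was not tested.

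The difference of the light effects, 6 ZT minus 3 ZT, was above 0 for 72 of 79 genes, against 48.8% of all probe sets, with a median of 0.27. At p under 0.05, 3 genes were higher, against 4.14%, and 0 passed the adjusted p, against 0%. These were *Cox8b* at 0.52 ± 0.13 (SE, adjusted p = 0.776), *Ndufs4* at 0.29 ± 0.11 (SE, adjusted p = 0.776) and *Ndufa9*, an accessory subunit of complex I, at 0.27 ± 0.11 (SE, adjusted p = 0.776). Without 3 ZT light replica 2 the median was 0.10, with 64 genes above 0, and of the 3 genes only *Cox8b* had p under 0.05. The number at that p was between 1 and 12 as each array was left out. By complex the medians were 0.28, 0.38, 0.15, 0.15 and 0.28 from I to V.

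Complex IV has isoforms known from muscle, testis or lung, which are given next. Several are dim. The means of *Cox8b*, *Cox6a2*, *Cox6b2* and *Cox7b2*, at 7.63, 6.99, 7.09 and 6.11, lay below 8.57, the median of the means of all probe sets. *Cox8b*, the form of subunit 8 in heart and skeletal muscle, stood at 7.87, 7.66 and 7.79 in 0 ZT dark, 7.64, 7.64 and 7.69 in 3 ZT dark, 7.52, 7.13 and 7.19 in 6 ZT dark, 7.68, 7.56 and 7.69 in 3 ZT light and 7.78, 7.89 and 7.70 in 6 ZT light. All 3 arrays of 6 ZT dark lay below the other 12, and the share of all probe sets with such a separation was not counted. The difference of *Cox8b* was -0.49 ± 0.09 (SE, adjusted p = 0.457) in 6 ZT dark from 0 ZT dark and 0.51 ± 0.09 (SE, adjusted p = 0.440) in 6 ZT light from 6 ZT dark, the smallest p-values among the 79 genes, and 0.02 in 6 ZT light from 0 ZT dark. The 5 skeletal muscle markers, 5 of 5 measured, averaged 8.12, 8.31 and 8.44 in 6 ZT dark, 8.05, 8.32 and 8.36 in 6 ZT light and 8.04 to 8.44 in 0 ZT dark.

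*Cox6b2*, the testis form of subunit 6b, stood at 6.93, 7.36 and 7.75 in 0 ZT dark, 6.83, 7.14 and 7.40 in 3 ZT dark, 6.83, 7.00 and 7.41 in 6 ZT dark, 6.67, 6.75 and 7.44 in 3 ZT light and 6.52, 7.19 and 7.17 in 6 ZT light. Every later array lay below 0 ZT dark of its own number. The differences were -0.39 ± 0.12 (SE, adjusted p = 0.560) in 3 ZT light, -0.26 ± 0.12 (SE, adjusted p = 0.570) in 6 ZT dark and -0.39 ± 0.12 (SE, adjusted p = 0.570) in 6 ZT light, and -0.22 in 3 ZT dark. Without 3 ZT light replica 2, the first was -0.27. The common form *Cox6b1* was lower in the same comparisons, at -0.48, -0.34, -0.19 and -0.10. *Cox7b2*, the testis form of subunit 7b, differed by -0.20 ± 0.06 (SE, adjusted p = 0.606) in 6 ZT light.

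*Cox7a1*, the muscle form of subunit 7a, stood at 8.88, 8.84 and 9.47 in 0 ZT dark, 8.69, 8.77 and 9.36 in 3 ZT dark, 8.85, 8.51 and 8.98 in 6 ZT dark, 9.01, 8.80 and 9.01 in 3 ZT light and 8.67, 8.73 and 8.85 in 6 ZT light. *Cox6a2*, the muscle form of subunit 6a, stood at 6.93, 7.20 and 6.96 in 0 ZT dark, 6.93, 7.07 and 7.13 in 3 ZT dark, 6.93, 6.94 and 6.97 in 6 ZT dark, 6.93, 7.08 and 7.08 in 3 ZT light and 6.80, 6.76 and 7.08 in 6 ZT light. The *Cox6a2* values of replica 1 were equal to 2 decimals in 4 conditions, and *Cox7a1* differed in 6 ZT light by -0.31 ± 0.13 (SE, adjusted p = 0.787). *Cox4i2*, the form of subunit 4 best known from lung, stood at 10.42, 10.61 and 12.08 in 0 ZT dark, 11.06, 9.97 and 11.78 in 3 ZT dark, 11.23, 12.15 and 11.33 in 6 ZT dark, 10.23, 10.21 and 11.69 in 3 ZT light and 10.96, 10.27 and 10.48 in 6 ZT light. *Cox5a*, a subunit on the matrix side, stood at 10.03, 11.44 and 11.53 in 0 ZT dark, 11.31, 11.70 and 11.20 in 3 ZT dark, 10.89, 9.63 and 11.11 in 6 ZT dark, 11.46, 11.56 and 11.14 in 3 ZT light and 10.81, 9.78 and 10.45 in 6 ZT light. These genes spread widely between replicas, with standard errors of 0.48 and 0.46. *Cox4i2* was below 6 ZT dark in every replica of 6 ZT light, at -1.003 ± 0.48 (SE, adjusted p = 0.590), and *Cox5a* was low in 0 ZT dark replica 1 and in replica 2 of both 6 ZT conditions.

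**Figure D4:**
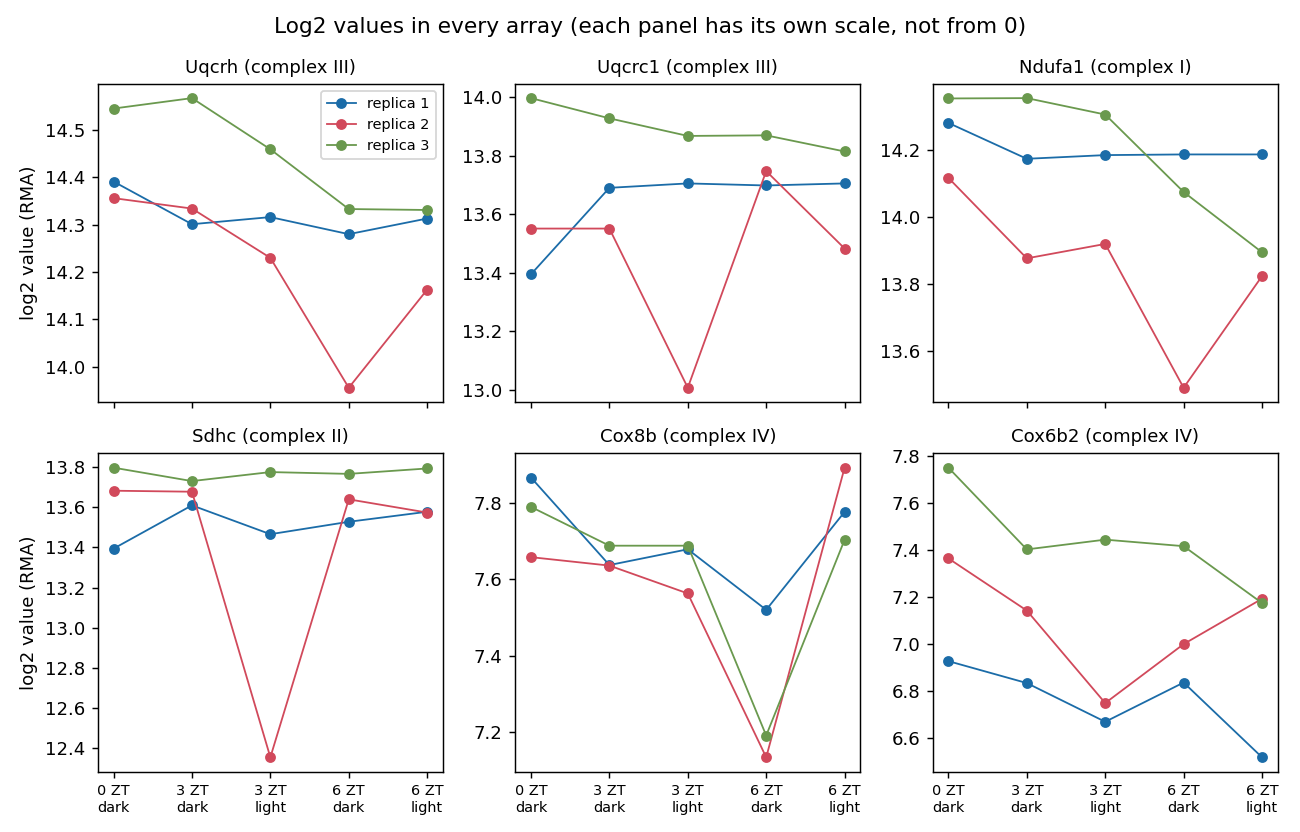
Log2 values (vertical axis, a scale of its own in each panel) of *Uqcrh*, *Uqcrc1*, *Ndufa1*, *Sdhc*, *Cox8b* and *Cox6b2* in the 5 conditions (horizontal axis), with 1 line for each replica number. *Sdhc* stands at 12.35 in 3 ZT light replica 2 and stays between 13.39 and 13.80 on the other arrays, and *Cox8b* is lowest in 6 ZT dark, at 7.13 to 7.52.

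No respiratory chain gene met the ratio rule of the study, a ratio to 0 ZT dark of the same replica above 1.6 or below 0.7 in all 3 replicas. The count below was 0 of 79 in each comparison, against 0.0741% of all probe sets in 3 ZT light, 0.0709% in 6 ZT light, 0.0161% in 3 ZT dark and 0.287% in 6 ZT dark. With limits of 1.4 and 0.8, 1 gene, *Cox8b*, lay below in 6 ZT dark.

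Other genes of oxidative metabolism were read from 5 lists. Assembly factors build the complexes, and 34 of 37 were measured. In 6 ZT dark 25 were lower than in 0 ZT dark, against 47.4% of all probe sets, with a median of -0.15. At p under 0.05, 10 were lower, against 5.26% of all probe sets, and 0 passed the adjusted p. In 3 ZT light 6 were lower and 1 higher at p under 0.05, against 4.43% lower of all probe sets. *Cox19*, a copper chaperone factor of complex IV, differed by -0.35 ± 0.09 (SE, adjusted p = 0.475) in 6 ZT dark, and *Atpaf2*, an assembly factor of the ATP synthase head, by -0.21 ± 0.07 (SE, adjusted p = 0.5004). Of 12 electron carrier genes 1 was lower at p under 0.05 in 6 ZT dark, *Coq7*, an enzyme of ubiquinone synthesis, at -0.28, a share near that of all probe sets, and 10 were lower, with a median of -0.11.

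The tricarboxylic acid cycle, which feeds complex II and shares it with the chain, had 15 genes measured, with a median of 0.01 in 6 ZT dark and 1 gene lower at p under 0.05, also near the share of all probe sets, the NADP-linked isocitrate dehydrogenase *Idh2*, at -0.52 ± 0.13 (SE, adjusted p = 0.475). *Idh2* was higher in 6 ZT light than in 6 ZT dark by 0.38 ± 0.13 (SE, adjusted p = 0.524). The 9 inner membrane carriers and pores had a median of -0.02 in 6 ZT dark, with 0 at p under 0.05. The median of complex II was -0.02 there, and those of complexes I, III, IV and V lay between -0.24 and -0.19. In 3 ZT light the fitted medians of the cycle and both carrier lists were low, as that of the chain was at -0.23. Replica 2 lay below these medians, and the other replicas lay nearer to 0. The cycle had a median of -0.17 (10 of 15 lower, against 48.7% of all probe sets), with 0.07, -0.42 and -0.02 in replicas 1, 2 and 3. The inner membrane carriers had -0.17 (8 of 9 lower), with 0.01, -0.28 and -0.02. The electron carriers had -0.20 (10 of 12 lower), with -0.0015, -0.39 and -0.0955.

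The 16 genes of mitochondrial biogenesis had a median of -0.03 in 6 ZT dark. There 10 were lower, against 47.4% of all probe sets, and 6 higher, with 2 lower at p under 0.05, against 5.26%. *Nrf1*, a transcription factor of nuclear genes for the chain, differed by -0.40 ± 0.09 (SE, adjusted p = 0.457) in 6 ZT dark and by -0.27 ± 0.09 (SE, adjusted p = 0.575) in 6 ZT light from 0 ZT dark, lower in all 3 replicas of each. *Gabpa*, another such factor, was higher by 0.50 ± 0.21 (SE, adjusted p = 0.649) in 3 ZT light. *Ppargc1a*, a coactivator of such factors, was higher than in 0 ZT dark by 0.38 ± 0.14 (SE, adjusted p = 0.611) in 3 ZT light and 0.41 ± 0.14 (SE, adjusted p = 0.655) in 6 ZT light, and by 0.09 in 3 ZT dark. Each of these values of single genes had an unadjusted limma p under 0.05 except that of *Ppargc1a* in 3 ZT dark, and none passed the adjusted p.

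Nuclear genes of the chain are known targets of the factors NRF1, GABPA and YY1, so their promoters were searched on both strands for GCGCANGCG (NRF1), CCGGAAG (GABPA), AAGATGGC (YY1) and GGGCGG (SP1). RefSeq promoter windows of 300 bases, from 250 before to 50 after the start, matched 71 of the 79 genes (GRCr8). NRF1 letters were found in 17 promoters (23.9%, against 6.26% of all 27457), GABPA in 20 (28.2%, against 9.22%), YY1 in 16 (22.5%, against 3.44%) and SP1 in 31 (43.7%, against 34.9%). Some of NRF1, GABPA or YY1 stood in 42 (59.2%, against 16.7% of all 27457). Promoters of genes on the array are the closer background, since the 79 genes were taken from the array. They held NRF1 letters in 11.2%, GABPA in 15.1%, YY1 in 4.73% and SP1 in 57.5%. Against these, SP1 was less frequent in the 71 promoters. The share of promoters of genes on the array with some of NRF1, GABPA or YY1 was not counted. By complex, NRF1 letters were in 8 of 33 promoters of complex I, 1 of 4 of II, 1 of 6 of III, 1 of 13 of IV and 6 of 15 of V. These matches are descriptions of letters and not sites.

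The promoters below show genes with small differences from 0 ZT dark in 6 ZT dark (*Sdhb* at -0.05, *Uqcrc1* at 0.12) beside genes that were low there (*Uqcrh*, *Ndufa6*, *Cox8b*), for complexes I to IV. Each runs 5′ to 3′ on the strand of the gene and ends 30 bases after the start, and capitals mark matches to the 4 motifs. *Uqcrc1* holds NRF1 letters at -63 and -39 and YY1 letters at -1, counted from the start, *Ndufa6* a match to each motif, *Uqcrh* and *Sdhb* a GABPA match, and *Cox8b* an SP1 match only.
Uqcrc1 (chr8:118467973-118468252, + strand): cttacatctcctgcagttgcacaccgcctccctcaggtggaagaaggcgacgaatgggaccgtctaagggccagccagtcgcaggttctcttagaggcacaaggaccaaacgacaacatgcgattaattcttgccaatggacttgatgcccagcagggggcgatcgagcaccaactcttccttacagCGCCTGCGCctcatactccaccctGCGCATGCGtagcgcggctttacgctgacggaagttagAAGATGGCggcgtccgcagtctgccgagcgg
Uqcrh (chr5:134790853-134791132, - strand): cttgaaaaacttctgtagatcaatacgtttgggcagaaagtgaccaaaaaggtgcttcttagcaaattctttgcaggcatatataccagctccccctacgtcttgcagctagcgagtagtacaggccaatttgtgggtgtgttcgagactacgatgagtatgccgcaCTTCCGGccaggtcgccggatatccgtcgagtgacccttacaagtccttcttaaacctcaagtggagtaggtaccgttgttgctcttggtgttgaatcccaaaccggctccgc
Sdhb (chr5:158547684-158547963, + strand): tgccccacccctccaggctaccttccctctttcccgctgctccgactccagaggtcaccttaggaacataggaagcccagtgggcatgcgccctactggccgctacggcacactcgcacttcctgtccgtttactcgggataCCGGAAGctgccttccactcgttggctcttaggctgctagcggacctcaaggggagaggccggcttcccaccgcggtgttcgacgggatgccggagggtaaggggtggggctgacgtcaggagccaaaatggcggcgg
Ndufa6 (chr7:115750288-115750567, - strand): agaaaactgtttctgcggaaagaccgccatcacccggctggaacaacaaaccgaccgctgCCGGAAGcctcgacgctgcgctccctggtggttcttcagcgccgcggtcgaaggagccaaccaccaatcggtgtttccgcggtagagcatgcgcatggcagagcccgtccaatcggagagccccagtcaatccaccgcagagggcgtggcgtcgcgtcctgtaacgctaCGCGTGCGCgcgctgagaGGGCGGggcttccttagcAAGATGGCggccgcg
Cox8b (chr1:205408244-205408523, - strand): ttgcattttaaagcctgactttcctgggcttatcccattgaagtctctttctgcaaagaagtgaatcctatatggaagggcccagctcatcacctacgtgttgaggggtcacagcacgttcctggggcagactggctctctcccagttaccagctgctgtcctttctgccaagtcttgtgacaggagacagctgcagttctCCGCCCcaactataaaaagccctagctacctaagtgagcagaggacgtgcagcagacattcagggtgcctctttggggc

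A further probe set was on the array for 8 of the genes. For *Uqcrc2* the brighter probe set differed from 0 ZT dark by 0.04 in 3 ZT light and the dimmer by -0.34, and for *Atp5if1* the brightest differed by -0.44 in 6 ZT dark and the others by -0.11 and -0.10. For *Sdhd* both were near 0 in 6 ZT dark, at -0.05 and -0.03.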

How the data were processed

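The deposited table holds log2 expression values of 31099 Affymetrix probe sets on 15 arrays, which the authors summarised and normalized with the Robust Multi-array Average. The software version is not given in the sources used here. Tests ran over 31042 probe sets, without the 57 controls. Arrays were grouped by their labels, with the title deciding the duration of light at 6 ZT. Gene symbols came from the platform annotation. The members, gene lists and tests were chosen with earlier results of these data known, and the split into core and other subunits and the background of bright probe sets after the values were seen.

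Differences were fitted with limma 3.58.1 in R 4.3.3 (lmFit and eBayes, no trend) over all 5 conditions, with replica number as a block, and p-values were adjusted by Benjamini-Hochberg with a threshold of 0.05. The labels give the same replica numbers in every condition. Arrays with the same number deviated together from their condition means, with r between 0.241 and 0.797 over 30 pairs, and the closest array of each other condition had the same number in 60 of 60 checks, so the numbers were taken as a block. The check cannot tell paired samples from arrays processed together by number. Summaries used Python 3.11.15 with pandas 2.3.3 and figures matplotlib 3.10.9. The fit was tested on simulated data. Single genes shown with all arrays were, by rule, catalytic or core subunits (for complex IV *Cox4i1* and *Cox5a*), genes with the smallest p-values, and isoforms of complex IV. Alternatives were no block, quantile normalization, subtraction of array medians, no dim probe sets, array quality weights, fits to the compared conditions only, the mean of all probe sets of a gene, other membership, other ratio limits and leaving out arrays. Promoters are RefSeq windows of the GRCr8 assembly.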

Additional observations from a re-analysis of the deposited data

Results flagged for a closer look

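Of the 79 genes, 4 accessory or iron-sulfur subunits of complex I were lower in light than in darkness in every replica at 3 ZT and higher in every replica at 6 ZT. Of all 31042 probe sets 606, or 1.95%, had this pattern. The light effect at 6 ZT minus that at 3 ZT was 0.27 for *Ndufa9* (adjusted p = 0.776), 0.64 for *Ndufb7* (adjusted p = 0.776), 0.37 for *Ndufs7* (adjusted p = 0.776) and 0.17 for *Ndufs6* (adjusted p = 0.780) in limma, so none passed the test of the difference. *Ndufb7* differed by -0.15, -1.27 and -0.13 at 3 ZT and by 0.02, 0.34 and 0.01 at 6 ZT in replicas 1, 2 and 3. *Ndufs7*, which carries an iron-sulfur cluster, differed by -0.23, -0.77 and -0.04 at 3 ZT and by 0.06 or less at 6 ZT. *Ndufa9* differed by -0.05, -0.39 and -0.12 at 3 ZT and by 0.03, 0.17 and 0.05 at 6 ZT. *Ndufs6* differed by -0.03, -0.24 and -0.02 at 3 ZT and by 0.01, 0.20 and 0.00 at 6 ZT. Several of the 6 ZT differences were under 0.03. In all 4 genes the largest values at 3 ZT came from 3 ZT light replica 2.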

How the results depend on the processing

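The direction of each complex's median turned in 33 of 762 alternative values, and 734 moved by less than the spread of the replicas. That spread includes 3 ZT light replica 2, so it is wide in the comparisons of 3 ZT light and is no measure of stability there. In 3 ZT light complex II moved from -0.27 to 0.01 without that array and still counted among the 734. Of the turns, 13 were for light at 6 ZT, 9 in 3 ZT dark, 5 each in 6 ZT dark and 6 ZT light against 0 ZT dark, all of complex II, and 1 in 3 ZT light, complex II at 0.0134 without 3 ZT light replica 2. In 3 ZT dark complexes I, III, IV and V stood at 0.0433, 0.00667, 0.101 and 0.0586 without 0 ZT dark replica 2, and I, III and V at 0.0225, 0.0293 and 0.0409 without 3 ZT dark replica 1. The number of genes at p under 0.05 changed as follows, and the cause was not tested. The fit without the replica block, which ignores the replica numbers, gave 1 gene in 3 ZT light, 0 in 6 ZT light and 1 in 6 ZT dark against 0 ZT dark, 0 and 1 for light against dark at 3 and 6 ZT, and 1 for the difference of the light effects, against 14, 6, 20, 7, 2 and 3 with it. Fits to the compared conditions alone gave 2, 3 and 7 against 0 ZT dark, 1 in 3 ZT dark, and 0 and 1 for light against dark. With array medians subtracted there were 9 in 3 ZT light, 10 in 6 ZT light and 1 for light at 6 ZT. Quantile normalization gave 10 in 6 ZT light. With dim probe sets left out there were 2 in 6 ZT light, 0 for light at 6 ZT and 1 for the difference. Array quality weights gave 40 in 6 ZT light, 3 in 3 ZT dark, 36 in 6 ZT dark and 0 for light at 3 ZT, where 35 of 79 genes were higher in light at 6 ZT, and 2 genes passed the adjusted p in 6 ZT light against 0 ZT dark (*Cox6b2* and *Ndufa1*) and 2 against 6 ZT dark (*Cox8b* and *Ndufs4*). With these weights the 3 ZT dark median was -0.0679, with -0.0787 for complex I, -0.0679 for IV and -0.0645 for V. The weights of 6 ZT light were 0.488, 0.464 and 7.45 in replicas 1, 2 and 3.

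Without both 0 ZT dark replica 1 and 3 ZT light replica 2 there were 8 genes in 3 ZT light, 26 in 6 ZT light, 3 in 3 ZT dark and 45 in 6 ZT dark, and 1 each for light at 3 ZT and the difference. The 3 ZT dark median was then -0.10, and -0.11 for complex I, -0.0893 for III, -0.12 for IV and -0.11 for V. *Sdha* and *Atp5f1a* in 3 ZT light against 3 ZT dark turned to 0.0279 and 0.0198 without both arrays. With ratio limits of 1.4 and 0.8, 1 gene was below in 6 ZT dark.

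Leaving out each array in turn gave 1 to 30 genes at p under 0.05 in 3 ZT light, 2 to 13 in 6 ZT light, 0 to 1 in 3 ZT dark, 2 to 35 in 6 ZT dark, 0 to 27 for light at 3 ZT, 1 to 5 for light at 6 ZT and 1 to 12 for the difference. In 3 ZT dark 18 to 68 genes were lower, with medians of -0.125 to 0.0535 over all, -0.131 to 0.0433 for complex I, -0.0458 to 0.160 for II, -0.127 to 0.0293 for III, -0.131 to 0.101 for IV and -0.135 to 0.0586 for V. The complex II median ran from -0.0990 to 0.0971 in 6 ZT dark and from -0.0455 to 0.112 for light at 6 ZT, and in 6 ZT light complex IV ran from -0.181 to -0.0196 and complex V from -0.231 to -0.0236. In 3 ZT light against 3 ZT dark *Sdha* ran from -0.493 to 0.0284, *Atp5f1a* from -0.212 to 0.0208 and *Uqcrc1* from -0.325 to 0.00375, each above 0 without 3 ZT light replica 2.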
